A study of Mus musculus with 2 samples.

Results

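Mural cells, the pericytes and smooth muscle cells that wrap blood vessels, were taken from stromal cells of the mouse mammary gland. A cell was counted as mural when it had no UMI (unique molecular identifier, 1 per captured transcript) of *Pdgfra*, a fibroblast receptor, and at least 1 UMI each of at least 3 of the genes *Rgs5*, *Notch3*, *Myh11*, *Acta2*, *Mcam*, *Kcnj8*, *Abcc9* and *Tagln*. This gave 1200 cells, 752 at puberty and 448 in the adult, out of 44506 cells that passed quality control and 44871 barcodes. Members were split into 1098 Myh11+ cells (at least 1 *Myh11* UMI), 84 Kcnj8/Abcc9+ Myh11- cells (at least 1 UMI of *Kcnj8* or *Abcc9* and none of *Myh11*) and 18 cells in neither class. The cells were chosen by the measured UMIs of these genes, so their values are given below as a description.

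Both groups came from female wild-type C57BL/6 mice, at 4 weeks of age (puberty) or 9 weeks (virgin adult), and the labels give 2 females for each. Stromal cells were sorted as CD24-negative and negative for the lineage antigens CD31 (endothelial), CD45 (immune) and TER-119 (red blood cells), so vessels were represented by mural cells without most of their endothelium. The libraries shared 145 cell barcodes, none of them mural in both. There was 1 library per stage, each labelled replicate 2, with a median of 11726 UMIs per barcode at puberty and 10781 in the adult. Differences between stages therefore compare 2 libraries and have no replicate check, and their intervals are 95% intervals for counting error alone.

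Smooth muscle of arteries and veins contracts through smooth muscle myosin, whose heavy chain is encoded by *Myh11*, sliding on the actin encoded by *Acta2*, with *Tagln* and *Cnn1* as actin-binding partners. Pericytes sit on capillaries inside the basement membrane that they share with the endothelium, depend on the PDGF receptor *Pdgfrb*, and often carry the ATP-sensitive potassium channel formed by *Kcnj8* and *Abcc9*. Transcription of many smooth muscle genes runs through serum response factor and its partner myocardin (*Myocd*), which act at a promoter element called the CArG box.

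The 3 stretches below are shown because they hold the CArG boxes found in the promoters of the contractile gene list. Promoters were 300 bases long, from 250 bases before to 50 after each RefSeq transcription start (build GRCm38.p6). The box was sought as CC, then 6 bases that are each A or T, then GG, a pattern that covers both strands. Capitals mark the box.
Ldb3: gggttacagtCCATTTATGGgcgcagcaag
Myl6: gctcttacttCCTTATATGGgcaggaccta
Myl9: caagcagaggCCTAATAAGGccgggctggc
The *Ldb3* stretch lies at chr14:34588697-34588726 on the minus strand, with the box starting 109 and 35 bases before 2 listed start sites. The *Myl6* stretch is at chr10:128493040-128493069 on the minus strand, 50 bases before the start, and the *Myl9* stretch at chr2:156775293-156775322 on the plus strand, 161 bases before it. Of the 25 contractile genes 21 had a promoter in the table, and 3 of them (14.3%) held a box, against 488 of 27025 genes in the whole table (1.81%), 0 of 14 matched pericyte genes and 0 of 6 matched rule genes. These are matches of letters in a window.

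The label was first checked against markers, on cells thinned to 2000 UMIs each so that depth did not set the shares. *Myh11* was detected in 98.9% of thinned pubertal and 96.2% of thinned adult Myh11+ cells, *Acta2* in 98.4% and 88.3%, and *Tagln* in 98.0% and 88.0%. *Lmod1*, a smooth muscle actin nucleator that the rule did not use, was found in 73.6% and 68.9%. *Des*, the intermediate filament of muscle, was found in 49.9% and 54.5%. In *Pdgfra*+ fibroblasts, which should lack these genes, *Myh11* came up in 0.489% and 0.297% of thinned cells, *Acta2* in 0.373% and 0.467% and *Lmod1* in 0.115% and 0.0535%. The median depth before thinning was 6315 and 6488 UMIs in Myh11+ cells and 12141 and 11250 in fibroblasts. *Myh11*, *Acta2* and *Tagln* chose these cells, and fibroblasts were limited to under 3 rule genes, so the check rests on *Lmod1*, *Des* and the other contractile genes below. *Des* was also found in 30.4% and 41.5% of thinned Kcnj8/Abcc9+ Myh11- cells. With these genes the Myh11+ class, taken as a sum, was smooth muscle-like. The name is not extended to the 86 of 378 adult Myh11+ cells that also held *Kcnj8* or *Abcc9*. Those had a median of 3 *Myh11* UMIs and are described apart below.

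The Kcnj8/Abcc9+ Myh11- class was smaller and less even. *Rgs5*, the usual pericyte marker, was detected in 43.5% of thinned pubertal cells (95% interval 23.2 to 65.5) and 78.0% of thinned adult cells (62.4 to 89.4). *Higd1b*, a mitochondrial pericyte gene outside the rule, came to 8.70% and 26.8%, and *Cspg4*, the pericyte proteoglycan NG2, to 4.35% and 43.9%. *Dcn*, the proteoglycan decorin that marks fibroblasts, was found in 52.2% of thinned pubertal (12 of 23) and 24.4% of thinned adult cells (10 of 41) of this class. Thinned to the same depth, *Dcn* came up in 10.8% and 18.0% of Myh11+ cells. The median depth of the class was 4304 and 2794 UMIs, in the adult under the level of 1 in 3 of its library's median, so it is called by its rule and given no cell type name.

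Other cell types were counted with marker lists. At puberty 10 of 28 Kcnj8/Abcc9+ Myh11- cells carried at least 5 of 10 fibroblast markers, against 3 of 56 in the adult, and the summed fibroblast markers stood at 30181 CPM (counts-per-million, the UMIs of a gene scaled to the same total of UMIs in every sum) against 4729 CPM. In fibroblasts themselves the sum was 36174 and 30298 CPM. *Pdgfra*, one of the 10, was at 0 by the rule, and every other fibroblast marker was present in this class in both libraries. In Myh11+ cells the sum was 2723 and 1884 CPM. Basal epithelial markers, whose cells also make *Myh11* and *Acta2*, reached at least 3 of 10 in 7 of 720 pubertal and 28 of 378 adult Myh11+ cells, with a summed level of 55.6 and 367 CPM. In the Kcnj8/Abcc9+ Myh11- class basal markers gave 1 UMI at puberty and 0 in the adult.

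The 18 cells in neither class went against the label. *Pax7*, the transcription factor of skeletal muscle stem cells, was detected in 3 of 4 pubertal (75%) and 13 of 14 adult cells (92.9%), and *Myf5*, another factor of that lineage, in 2 and 11. *Lmod1* and *Higd1b*, which the rule did not use, had 0 UMIs in all of them. They entered the rule mainly through *Acta2*, *Tagln* and *Notch3*, found in 4, 4 and 3 of the 4 pubertal cells and in 13, 12 and 14 of the 14 adult cells. *Rgs5* was found in 2 of the 4 pubertal cells and *Mcam* in 3 of the 14 adult cells. They are counted in the shares of mural cells and in the sums compared with fibroblasts, and are in neither class of the other comparisons.

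**Figure D1:**
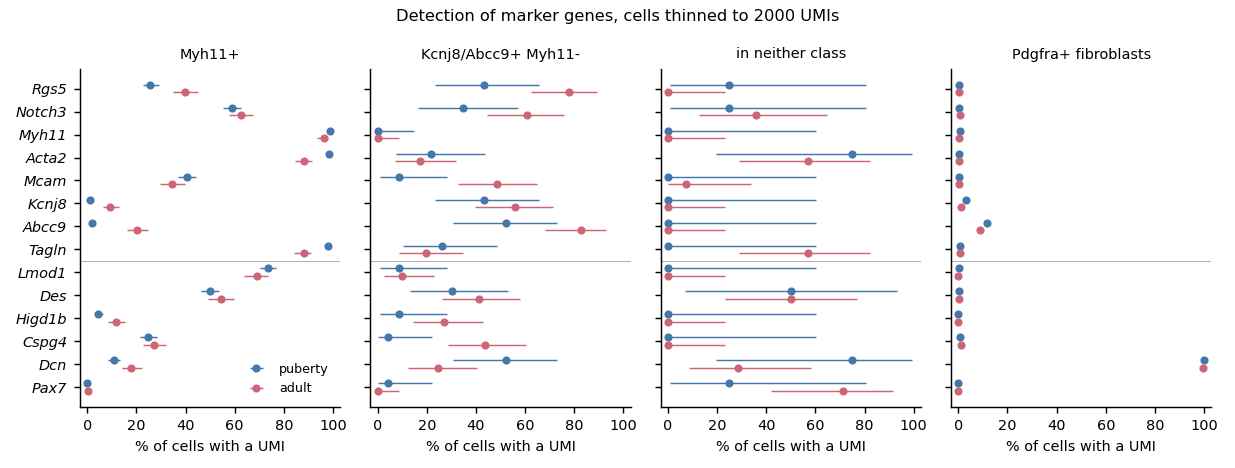
Percent of cells with at least 1 UMI of each gene after thinning to 2000 UMIs, in the 2 mural classes, the 18 cells in neither class and *Pdgfra*+ fibroblasts, at puberty and in the adult; bars are exact 95% intervals for counting error, and the genes above the grey line chose the members. Cells under 2000 UMIs are left out. *Myh11* and *Lmod1* mark the Myh11+ class, *Dcn* is found in 52.2% of thinned pubertal cells of the Kcnj8/Abcc9+ Myh11- class, and *Pax7* stands out in the cells of neither class.

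Because of these values the main results are given for all members and again for cleaned members, from which cells with at least 5 fibroblast markers, or at least 3 markers of basal, luminal, endothelial, Schwann, skeletal muscle or immune cells, had been removed. This cleaning was chosen after the data had been seen. It left 661 pubertal and 343 adult Myh11+ cells and 14 and 51 Kcnj8/Abcc9+ Myh11- cells. The summed fibroblast markers in the latter class then stood at 1574 and 1597 CPM, and basal markers at 0 UMIs. These marker lists chose the removed cells, so the fall of their members was built into the cleaning.

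Mural cells made up a smaller share of the adult sort. They were 3.49% of pubertal cells (752 of 21534, exact interval 3.25 to 3.75) and 1.95% of adult cells (448 of 22972, 1.78 to 2.14). Dividing the adult share by the pubertal one gave 0.559 (0.496 to 0.629). With cleaned members the ratio was 0.550 (0.484 to 0.623). Myh11+ cells were 3.34% and 1.65% of all cells, with a ratio of 0.492 (0.433 to 0.558). Kcnj8/Abcc9+ Myh11- cells differed in the other direction, at 0.130% and 0.244%, with a ratio of 1.88 (1.17 to 3.07), and with cleaned members at 0.0650% and 0.222%, with a ratio of 3.42 (1.86 to 6.68). The Myh11+ share of mural cells was accordingly 95.7% at puberty (94.1 to 97.1) and 84.4% among adult cells (80.7 to 87.6), a difference of -11.4 points (-15.2 to -7.87). Without the *Pdgfra* limit it was -2.09 points (-6.25 to 1.94), an interval that includes 0. The Kcnj8/Abcc9+ Myh11- class then held 279 of 21534 pubertal and 146 of 22972 adult cells, so its higher adult share turned to a lower one. Another 474 pubertal and 216 adult cells met the 3-gene minimum but carried a *Pdgfra* UMI, and 468 and 209 of them had at least 5 fibroblast markers.

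The minimum of 3 rule genes had a visible edge. Of cells without *Pdgfra* with exactly 3 rule genes, 50 at puberty and 64 in the adult, 38% and 6.25% had at least 5 fibroblast markers. Just outside, with 2 rule genes, there were 139 and 80 cells, of which 84.9% and 43.8% had at least 5. With 4 rule genes these shares were 10.5% and 5.17%.

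The 2 classes were compared to see which genes differ between them beyond those that defined them. UMIs were summed per class and library and tested with edgeR's quasi-likelihood method with library as a block. The spread was then the class-by-library difference with 1 residual degree of freedom, moderated across genes. The split was made on *Myh11*, *Kcnj8* and *Abcc9* in the same cells, and the 8 rule genes and *Pdgfra* are left out of the counts. Of 9722 genes tested, 209 were higher in Myh11+ cells (2.15%) and 262 lower (2.69%) at a Benjamini-Hochberg adjusted p under 0.05. With cleaned members 751 of 8994 were higher (8.35%) and 451 lower (5.01%). The edgeR adjusted p of *Kcnab1* was 0.0162 with all members and 1.21e-52 with cleaned ones, at log2 fold changes of 14.5 and 14.2. The 2 sets of counts thus rest on different fitted spreads, and their sizes are not compared. Of the genes called higher, 34 of 209 and 100 of 751 had 0 UMIs in the other class in both libraries, and passed the expression filter through the Myh11+ sums. Without the library block the same method called 0 in either direction, with 2023 genes at an unadjusted p under 0.05. DESeq2 with the block called 256 higher and 289 lower. Of the called genes followed through the alternatives, 49 also passed with DESeq2 and 19 did not.

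Contractile genes were the group with the most uniform difference. Of 24 tested, 16 were higher in Myh11+ cells, 0 were lower and 8 did not pass, and with cleaned members 20 of 24 were higher and 0 lower. All genes tested gave 2.15% higher and 2.69% lower, or 8.35% and 5.01% with cleaned members. Members at 0 UMIs in the other class, such as *Pln*, *Cnn1* and *Ldb3*, passed the expression filter through the Myh11+ sums. They could only be called higher, so the count is a description. The contractile list's median log2 fold change was 3.57, or 3.37 with genes at 0 set to their bound, against 0.02 over all genes tested. *Pln*, phospholamban, the brake on the calcium pump of the sarcoplasmic reticulum, stood at 278 CPM at puberty and 295 CPM in the adult in Myh11+ cells and at 0 UMIs in the other class in both libraries. It was at least 37.6-fold higher, and at least 20.6-fold with cleaned members (such bounds put the other class at 3 counts over both its libraries). *Cnn1*, calponin, was at 208 and 183 CPM against 0 UMIs, at least 26.4-fold higher and at least 11.9-fold with cleaned members. *Ldb3*, a Z-disc protein and the gene of the first stretch shown above, was at 106 and 106 CPM against 0 UMIs, at least 14-fold higher. All 3 genes were thus seen in each library in Myh11+ cells alone of these classes.

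*Myocd*, the myocardin coactivator, was counted at 233 and 239 CPM in Myh11+ cells and at 1 and 0 UMIs in the other class, a log2 fold change of 6.67 ± 0.72 (SE, edgeR quasi-likelihood adjusted p = 0.0162). The myosin light chains *Myl9* and *Myl6*, the other genes with a CArG box in the window, were present in both classes. *Myl9* was at 3151 and 2569 CPM in Myh11+ cells and at 152 and 361 CPM in the other class, with a log2 fold change of 3.74 ± 0.62 (edgeR adjusted p = 0.0270). *Myl6* was at 4136 and 3424 CPM against 465 and 587 CPM, with a log2 fold change of 3.01 ± 0.56 (edgeR adjusted p = 0.0373). In each of these genes the lower Myh11+ library lay well above the higher library of the other class.

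Not every muscle gene separated the classes. *Des* was at 397 and 491 CPM in Myh11+ cells and at 111 and 316 CPM in the other class, with an edgeR adjusted p of 0.132. *Cald1*, caldesmon, was at 3045 and 3229 CPM against 697 and 1215 CPM (edgeR adjusted p = 0.103), *Synpo2*, an actin-bundling protein, at 578 and 566 CPM against 101 and 477 CPM (0.222), and *Smtn*, smoothelin, at 74.3 and 57.2 CPM against 35.4 and 30.1 CPM (0.182). None of these 4 passed the test.

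**Figure D2:**
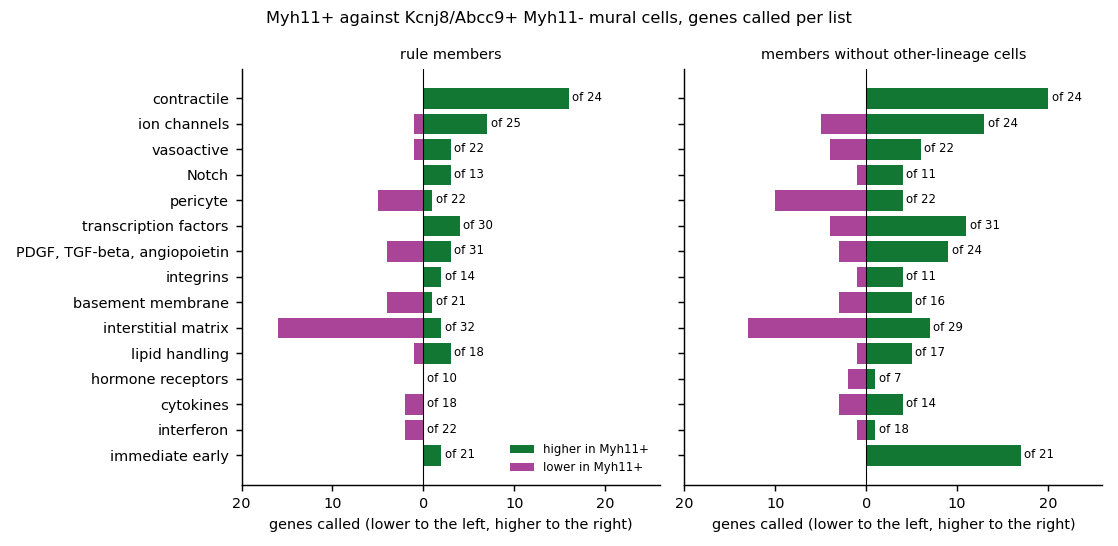
Number of genes of each list called higher (right, green) or lower (left, purple) in Myh11+ than in Kcnj8/Abcc9+ Myh11- cells by edgeR at an adjusted p under 0.05, with the number tested beside each bar, for all members and for cleaned members. Contractile genes were called in 1 direction (16 and 20 of 24), and matrix genes mostly in the other (16 of 32 and 13 of 29 lower).

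Calcium and membrane potential genes were called more often higher than lower. Of 25 ion channel and calcium handling genes tested, 7 were higher in Myh11+ cells and 1 lower, against 2.15% and 2.69% of all genes. With cleaned members 13 of 24 were higher and 5 lower, against 8.35% and 5.01% of all genes. *P2rx1*, *Ryr2*, *Kcna5* and *Kcnmb1* had 0 UMIs in the other class. They passed the expression filter through the Myh11+ sums and could only be called higher, so the count is a description. *P2rx1*, the ATP-gated channel that excites smooth muscle at sympathetic nerve endings, was at 242 and 216 CPM in Myh11+ cells and at 0 UMIs in the other class, at least 30.8-fold higher (16.9-fold with cleaned members). *Ryr2*, a calcium release channel of the sarcoplasmic reticulum, was at 190 and 115 CPM against 0 UMIs, at least 21.7-fold higher (12.03-fold with cleaned members). *Kcna5*, a voltage-gated potassium channel, and *Kcnmb1*, the smooth muscle subunit of the large calcium-activated potassium channel, were at least 9.84-fold and 5.97-fold higher, again against 0 UMIs. *Kcnab1*, a beta subunit of voltage-gated potassium channels outside this list, led all genes named by the size rule, with 1991 and 1193 CPM against 0 UMIs, at least 227-fold higher. *Itpr2*, an inositol trisphosphate receptor, was the member that was lower, at 14.8 and 32.8 CPM against 101 and 126 CPM, a log2 fold change of -2.17 ± 0.42 (edgeR adjusted p = 0.0395).

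Other genes that led the contrast against 0 UMIs in both libraries were *Map3k7cl*, *Sox6*, *Rergl*, *Cdh6*, *Susd5* and *Xirp1*. *Sox6*, an SRY-box transcription factor, was at 408 and 377 CPM in Myh11+ cells and at least 52.6-fold higher. *Cdh6*, a cadherin, was at 214 and 204 CPM and at least 27.8-fold higher. *Xirp1*, an actin-binding muscle protein, was at 260 and 134 CPM and at least 28.6-fold higher. *Map3k7cl*, *Rergl* and *Susd5* were at least 62.0-fold, 30.1-fold and 27.2-fold higher. With cleaned members the bounds of these 6 genes ran from 15.3 for *Susd5* to 34.6 for *Map3k7cl*.

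Genes of Notch signalling, through which endothelium instructs mural cells, showed 3 higher and 0 lower of 13 tested. The list holds receptors, ligands and their modifiers as well as targets. With cleaned members 4 of 11 were higher and 1 lower. Over all genes tested 2.15% were higher and 2.69% lower, or 8.35% and 5.01% with cleaned members. *Nrarp*, a feedback target of Notch, was at 288 and 201 CPM in Myh11+ cells and at 1 UMI in each library of the other class, with a log2 fold change of 5.73 ± 0.54 (edgeR adjusted p = 0.0162). *Nrip2* stood at 294 and 305 CPM against 1 UMI in each library, with 6.04 ± 0.54 (edgeR adjusted p = 0.0162). *Hey2*, a Notch-induced repressor of arterial smooth muscle, was at 46.0 and 60.0 CPM against 1 UMI in each, with 3.54 ± 0.67 (edgeR adjusted p = 0.0377). The receptor *Notch3* is a rule gene and was present in both classes, in 59.0% and 62.7% of thinned Myh11+ cells and in 34.8% and 61.0% of thinned cells of the other class.

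Of 22 genes of vasoactive receptors and their signalling tested 3 were higher and 1 was lower, and with cleaned members 6 were higher and 4 lower of 22. The shares over all genes were 2.15% higher and 2.69% lower, or 8.35% and 5.01% with cleaned members. *Ramp1*, which turns the calcitonin receptor-like receptor into the receptor of the vasodilator CGRP, was at 97.1 and 82.8 CPM in Myh11+ cells and 0 UMIs in the other class, at least 12.2-fold higher (6.62-fold with cleaned members). *Ptger3*, a prostaglandin E2 receptor, was at 73.5 and 76.8 CPM against 0 and 1 UMIs, with a log2 fold change of 5.03 ± 0.81 (edgeR adjusted p = 0.0250). *S1pr3*, a sphingosine-1-phosphate receptor, was at 609 and 467 CPM against 55.6 and 156 CPM, with 2.59 ± 0.52 (edgeR adjusted p = 0.0451). *Agtr1a*, the angiotensin II receptor, was lower in Myh11+ cells, at 16.3 and 48.0 CPM against 167 and 462 CPM, with -3.14 ± 0.33 (edgeR adjusted p = 0.0162).

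Among 22 pericyte genes tested, 5 were lower in Myh11+ cells and 1 was higher, and with cleaned members 10 were lower and 4 higher. All genes tested gave 2.69% lower and 2.15% higher, or 5.01% and 8.35% with cleaned members. The pericyte list's median log2 fold change was -0.86 (-0.89 with cleaned members), but it turned to 1.58 without the *Pdgfra* limit and to 0.23 when the adult library was left out. *Vtn*, vitronectin, was at 9.67 and 101 CPM in Myh11+ cells and at 85.9 and 387 CPM in the other class, with a log2 fold change of -2.26 ± 0.42 (edgeR adjusted p = 0.0377), which turned to 0.28 without the *Pdgfra* limit. *Art3*, an ADP-ribosyltransferase of the cell surface, was at 19.98 and 103.5 CPM against 101 and 608 CPM, with -2.29 ± 0.34 (edgeR adjusted p = 0.0207). *Foxs1*, a forkhead factor of this list, was the member that was higher, at 190 and 167 CPM against 10.1 and 45.2 CPM (edgeR adjusted p = 0.0377). Within each library both *Vtn* and *Art3* were higher in Kcnj8/Abcc9+ Myh11- cells. Both were also higher in the adult library in either class with all members, while in cleaned Kcnj8/Abcc9+ Myh11- cells the adult over puberty ratios were 1.70 (0.873 to 3.69) and 1.49 (0.890 to 2.65).

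The best known pericyte receptor and proteoglycan did not pass with all members. *Pdgfrb* was at 166 and 268 CPM in Myh11+ cells and at 243 and 788 CPM in the other class (edgeR adjusted p = 0.259). *Cspg4* was at 145 and 167 CPM against 25.3 and 166 CPM (0.329), and *Higd1b* at 24.5 and 49.97 CPM against 30.3 and 161 CPM (0.292). *Steap4*, a metalloreductase, was at 36.3 and 236 CPM against 435 and 773 CPM (0.0580).

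**Figure D3:**
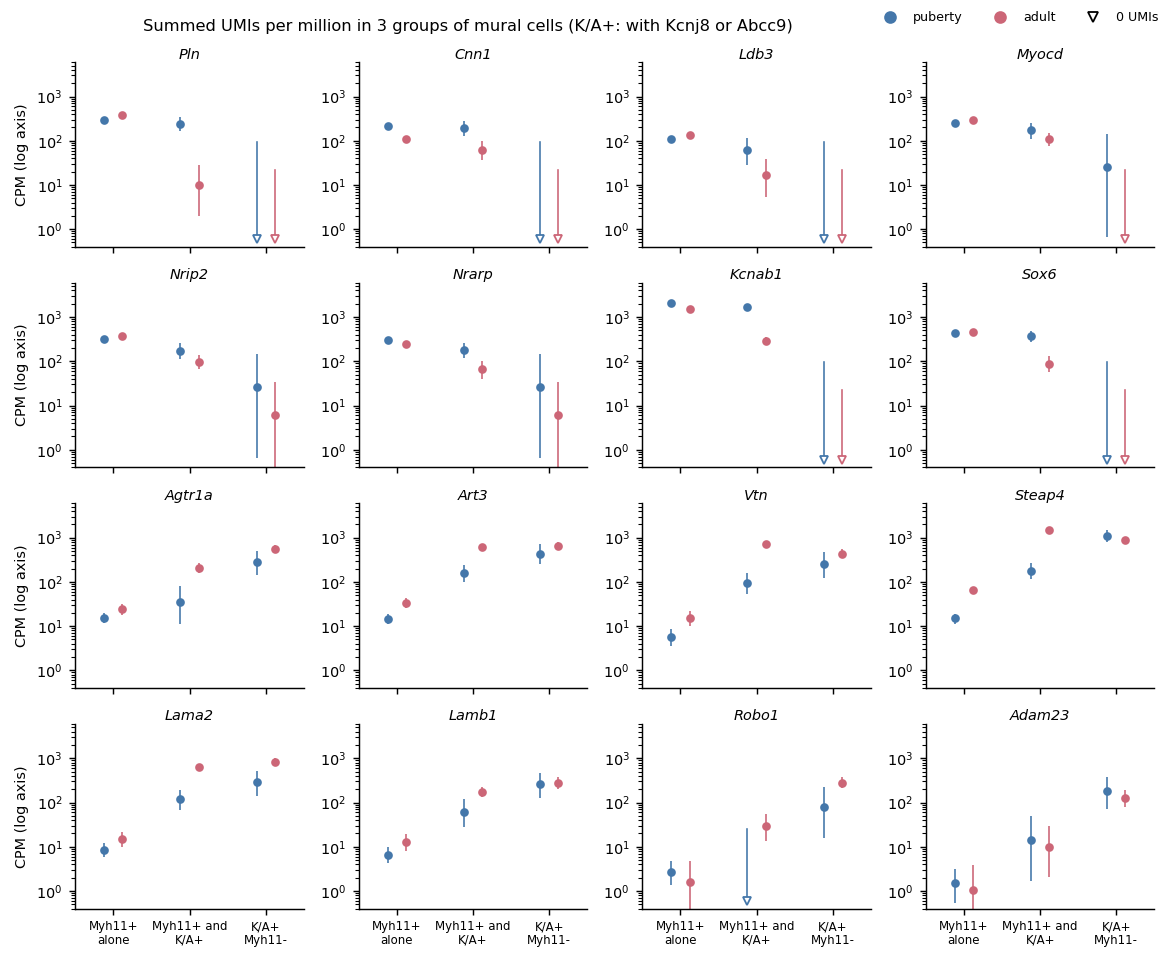
Summed UMIs in CPM (log axis) of 16 genes in cleaned Myh11+ cells without *Kcnj8* and *Abcc9*, in cleaned Myh11+ cells with either (K/A+) and in cleaned Kcnj8/Abcc9+ Myh11- cells, at puberty and in the adult; bars are exact 95% Poisson intervals and open triangles mark sums of 0 UMIs, with a line up to the upper limit. In the adult, *Pln* was at 381 CPM in the first group and 9.85 CPM in the second, and *Steap4* at 65.6 and 1501 CPM.

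Genes of the extracellular matrix differed mostly downward, and this is where fibroblast markers moved with the result. Of 32 interstitial matrix genes tested 16 were lower in Myh11+ cells and 2 higher, with a median log2 fold change of -2.53. With cleaned members 13 of 29 were lower and 7 higher, with a median of -0.94. Among all genes tested 2.69% were lower and 2.15% higher, or 5.01% and 8.35% with cleaned members. *Col1a1*, the main collagen of fibroblasts, was at 374 and 69.6 CPM in Myh11+ cells against 11017 and 1270 CPM in the other class, and with cleaned members at 101 and 70.7 against 361 and 535 CPM. *Lum*, the proteoglycan lumican, was lower with all members by -3.91 ± 0.42 on the log2 scale, and with cleaned members had an edgeR adjusted p of 0.491. *Col1a1* and *Lum* were themselves among the fibroblast markers used in the cleaning, so their shift with it was built in. *Tnc* and *Thbs1*, matrix proteins that modulate adhesion, were the members that were higher, at 83.8 and 119 CPM against 3 and 2 UMIs and at 1927 and 1087 CPM against 318 and 276 CPM.

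The genes that were lowest in Myh11+ cells by the size rule largely left with the cleaning. *Mfap4*, *Itgbl1*, *Sfrp4*, *Gpnmb* and *Cpz* were at 106 to 561 CPM at puberty in all Kcnj8/Abcc9+ Myh11- cells and at 0 UMIs in the cleaned ones in both libraries. *Cilp* and *Mmp3*, at 96.0 and 490 CPM at puberty, were left with 0 UMIs at puberty and 1 in the adult each. The skeletal muscle genes *Myog* and *Lmod2*, at 212 and 147 CPM at puberty and 10.0 and 121 CPM in the adult, were also at 0 UMIs after cleaning, and before it 2 cells of the class in each library held at least 3 skeletal muscle markers. *Myog* was itself among those markers, so its fall was built into the cleaning. *Prune2* was the exception, at 25.8 and 168 CPM against 0.237 and 4.59 CPM in cleaned Myh11+ cells. In the cleaned pubertal sum of 38749 UMIs from 14 cells, 1 UMI is 25.8 CPM, so that pubertal value is near the floor.

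With cleaned members other genes took the lowest places. *Adam23*, a catalytically inactive ADAM protein, was at 181 and 126 CPM in Kcnj8/Abcc9+ Myh11- cells and at 1.90 and 2.29 CPM in Myh11+ cells, a log2 fold change of -5.70. *Fst*, follistatin, the activin antagonist, was at 645 and 402 CPM against 6.88 and 10.1 CPM (-5.48). *Robo1*, a Slit receptor, was at 77.4 and 282 CPM against 2.61 and 5.51 CPM (-5.10). *Tmem273* and *Dnajc6* differed by -4.95 and -4.66. Each of these 5 was lower in Myh11+ cells in both libraries, and each passed with all members too. The pubertal values of the cleaned Kcnj8/Abcc9+ Myh11- class rest on few UMIs, with 7 for *Adam23* and fewer for *Robo1*.

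Basement membrane genes changed laminin by laminin. Of 21 tested 4 were lower in Myh11+ cells and 1 higher, and with cleaned members 3 were lower and 5 higher of 16. The shares over all genes were 2.69% lower and 2.15% higher, or 5.01% and 8.35% with cleaned members. *Lama5*, the laminin alpha-5 chain, was at 241 and 214 CPM in Myh11+ cells against 2 and 0 UMIs, a log2 fold change of 5.65 ± 0.70 (edgeR adjusted p = 0.0163). *Lama2*, the alpha-2 chain, was lower, at 37.2 and 91.5 CPM against 1056 and 949 CPM, with -3.93 ± 0.53 (edgeR adjusted p = 0.0183), and *Lamb1* was at 18.5 and 46.4 CPM against 162 and 241 CPM, with -2.57 ± 0.37 (edgeR adjusted p = 0.0203). With cleaned members *Lama2* and *Lamb1* differed by -3.11 and -3.20. *Col15a1* passed with all members (edgeR adjusted p = 0.0365) and not with cleaned ones (0.137).

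Among growth factors *Inhba*, the activin A subunit, was at 162 and 74.4 CPM in Myh11+ cells against 0 UMIs, at least 17.4-fold higher. *Ntf3*, neurotrophin-3, was at 88.3 and 99.9 CPM against 1 and 2 UMIs, with a log2 fold change of 3.8 ± 0.55 (edgeR adjusted p = 0.0206), and *Pgf*, placental growth factor, at 116 and 113 CPM against 4 and 1 UMIs, with 3.35 ± 0.56 (edgeR adjusted p = 0.0280). *Igf1* was lower by -4.67 ± 0.46 on the log2 scale with all members and had 0 UMIs in the cleaned Kcnj8/Abcc9+ Myh11- cells. The whole list of 31 tested PDGF, TGF-beta, angiopoietin and related genes had 3 higher and 4 lower, with a median of -0.08, and with cleaned members 9 higher and 3 lower of 24, with a median of 0.39. *Itga8* and *Itga4*, integrins that bind matrix, were the 2 higher of 14 integrins, by 4.06 ± 0.54 and 3.75 ± 0.73 on the log2 scale, and with cleaned members 4 of 11 were higher and 1 lower. For both lists, the shares over all genes were 2.15% higher and 2.69% lower, or 8.35% and 5.01% with cleaned members.

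Of 30 transcription factors tested 4 were higher and 0 lower (11 higher and 4 lower of 31 with cleaned members), among them *Myocd*, *Foxs1* and *Tbx2*, a T-box repressor at 115 and 163 CPM against 5.05 and 40.2 CPM. Lipid genes gave 3 higher and 1 lower of 18 (5 and 1 of 17 with cleaned members), led by *Pnpla2*, the adipose triglyceride lipase, at 290 and 248 CPM against 1 and 4 UMIs. Hormone receptors gave 0 of 10 in either direction by edgeR, interferon genes 0 higher and 2 lower of 22, and cytokines 0 higher and 2 lower of 18. With cleaned members these were 1 higher and 2 lower of 7, 1 and 1 of 18, and 4 and 3 of 14. For all lists of this paragraph, the shares over all genes were 2.15% higher and 2.69% lower, or 8.35% and 5.01% with cleaned members. Immediate early and stress genes, which respond to dissociation, gave 2 higher of 21 with all members and 17 of 21 with cleaned members, with a median log2 fold change of 1.55 against 0.12 over all genes tested there. The part of these genes in the other differences was not tested. The counts of 2 and 17 of 21 rest on the different fitted spreads given above.

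Some cells held the defining genes of both classes. *Kcnj8* or *Abcc9* was detected in 45 of 720 pubertal Myh11+ cells (6.25%, 4.60 to 8.27) and in 86 of 378 adult ones (22.8%, 18.6 to 27.3), a ratio of 3.64 (2.51 to 5.34). After thinning to 2000 UMIs the shares were 2.30% (16 of 697) and 20.2% (74 of 367), a ratio of 8.78 (5.07 to 16.2), and with cleaned members 1.84% and 21.6%, a ratio of 11.8 (6.33 to 23.8). In fibroblasts, which also make both genes, the thinned share was lower in the adult, at 14.1% and 9.52%, a ratio of 0.676 (0.637 to 0.718). After thinning, the pubertal share in Myh11+ cells lay below that of fibroblasts and the adult share above it. Before thinning both lay below it, with fibroblasts at 47.1% and 28.3%. In the 18 cells of neither class, both genes are at 0 by construction and give no background level, so the part of free RNA in the pubertal share was not tested.

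**Figure D4:**
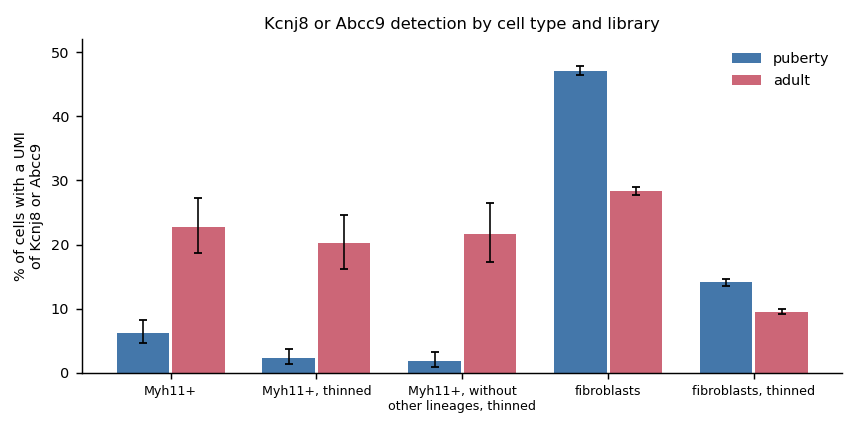
Percent of Myh11+ cells and of *Pdgfra*+ fibroblasts with a UMI of *Kcnj8* or *Abcc9* at puberty and in the adult, before and after thinning to 2000 UMIs; bars are exact 95% intervals for counting error. The share was 2.30% and 20.2% in thinned Myh11+ cells and 14.1% and 9.52% in thinned fibroblasts.

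These co-detecting cells held little *Myh11* in the adult. Myh11+ cells without *Kcnj8* and *Abcc9* had a median of 47 *Myh11* UMIs at puberty and 54 in the adult. Co-detecting cells had a median of 14 at puberty and 3 in the adult, and in 7 of 45 and 23 of 86 of them the class rested on a single *Myh11* UMI. Depth also differed, with a median of 6334 UMIs in pubertal and 3273 in adult co-detecting cells, against 6305 and 7042 in the others. *Rgs5* was detected in 83 of the 86 adult co-detecting cells (96.5%) and in 42.5% of the other adult Myh11+ cells.

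Their other genes followed in the adult library. With cleaned members *Myh11* itself stood at 8188 and 8953 CPM in Myh11+ cells without *Kcnj8* and *Abcc9* and at 5786 and 2525 CPM in co-detecting cells, at puberty and in the adult. *Pln* was at 288 and 381 CPM in the former and at 242 and 9.85 CPM in the latter, and *Kcnab1* at 2116 and 1497 against 1673 and 296 CPM. *Steap4* was at 15.0 and 65.6 CPM in the former and at 180 and 1501 CPM in the latter. *Vtn* was at 5.65 and 14.9 against 96.8 and 719 CPM, *Lama2* at 8.6 and 14.9 against 118 and 644 CPM, and *Art3* at 14.5 and 33.1 against 159 and 608 CPM. In adult Kcnj8/Abcc9+ Myh11- cells *Vtn*, *Art3* and *Steap4* were at 438, 655 and 901 CPM, so that co-detecting cells lay above them for *Vtn* and *Steap4* and slightly below for *Art3*. *Robo1* and *Adam23* were nearer to the other Myh11+ cells, at 29.6 and 9.85 CPM in adult co-detecting cells against 282 and 126 CPM in the adult Kcnj8/Abcc9+ Myh11- cells. These groups were cut on the detection of single genes, so their values are a description, with no test.

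Within Myh11+ cells the stages were then compared gene by gene, on genes with at least 50 CPM in either library and outside the rule. A gene was called when its ratio was at least 2-fold and the interval of the ratio left out 1. Of 3827 genes measured, 98 were higher in the adult (2.56%) and 83 lower (2.17%), and with cleaned members 80 of 3740 were higher (2.14%) and 67 lower (1.79%). TMM scaling, which shifted the log2 ratios by -0.14, turned the balance to 75 higher and 118 lower of 3792. Of 23 contractile genes measured 0 were called with all members, with a median log2 ratio of -0.19, and *Lmod1* was at 802 and 815 CPM, a ratio of 1.02 (0.963 to 1.07). With cleaned members 1 of 23 was called, *Cnn1*, at 212 and 102 CPM, a ratio of 0.482 (0.415 to 0.559), where all members gave 0.877 (0.783 to 0.981).

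Some pericyte genes were higher in the adult Myh11+ cells. Of 17 measured 3 were higher and 0 lower, and with cleaned members 4 of 18 were higher and 0 lower. Over all genes measured 2.56% were higher and 2.17% lower, or 2.14% and 1.79% with cleaned members. *Vtn* rose from 9.67 to 101 CPM, a ratio of 10.5 (7.60 to 14.7), or 12.9 (9.11 to 18.8) with cleaned members. *Steap4* rose from 36.3 to 236 CPM, a ratio of 6.49 (5.46 to 7.74), or 12.9 (10.3 to 16.3). *Art3* rose from 19.98 to 103.5 CPM, a ratio of 5.18 (4.07 to 6.64). *Lin7a*, a PDZ scaffold protein, rose from 25.99 to 134 CPM, a ratio of 5.17 (4.19 to 6.42). The co-detecting cells described above held most of the adult UMIs of *Vtn*, *Steap4* and *Art3*, and these genes were also higher in adult Myh11+ cells without *Kcnj8* and *Abcc9*, with cleaned ratios of 2.64 (1.47 to 4.80) for *Vtn*, 4.38 (3.20 to 6.05) for *Steap4* and 2.28 (1.57 to 3.31) for *Art3*. The rule gene *Rgs5* is given as a description, at 384 and 1360 CPM.

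Of 12 basement membrane genes measured 1 was called higher and 0 lower, and of 11 lipid genes 2 were higher and 1 lower. Among all genes measured 2.56% were higher and 2.17% lower. *Lama2* went from 37.2 to 91.5 CPM, a ratio of 2.46 (2.01 to 3.02), and with cleaned members from 12.3 to 102.8 CPM, a ratio of 8.33 (6.14 to 11.5). *Cd36*, a fatty acid transporter of capillary and mural cells, went from 132 to 297 CPM, a ratio of 2.25 (2.02 to 2.51), or 3.37 (2.98 to 3.81) with cleaned members. *Opcml*, a cell adhesion protein, had a ratio of 2.22 (1.89 to 2.62), or 6.10 (4.75 to 7.91). Its ratio turned to 0.940 without the *Pdgfra* limit and to 0.966 with the rule on thinned cells. The heat shock genes *Hspa1a* and *Hspa1b* were the 2 immediate early and stress genes called higher, with ratios of 2.00 (1.83 to 2.19) and 2.73 (2.44 to 3.06).

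Of 21 immediate early and stress genes 0 were lower in the adult Myh11+ cells, against 2.17% of all genes measured. The genes named here lay outside that list. *Rgs2*, a brake on Gq-coupled receptors, fell from 105 to 15.6 CPM, a ratio of 0.148 (0.104 to 0.206). *Nr4a2*, an early response nuclear receptor, went from 714 to 206 CPM, a ratio of 0.288 (0.262 to 0.316), *Hbegf*, an EGF receptor ligand, from 348 to 111 CPM, a ratio of 0.319 (0.280 to 0.362), and *Ier5*, an early response gene, from 266 to 84.8 CPM, a ratio of 0.319 (0.274 to 0.369). *Nup210l*, a nucleoporin-like gene, had 0.147 (0.115 to 0.185), and *Slc15a2*, a peptide transporter, 0.168 (0.119 to 0.232). With cleaned members these 6 ratios lay between 0.136 and 0.337, so they were low in either set of cells. *Il6* was at 301 and 130 CPM, a ratio of 0.433 (0.382 to 0.489).

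Several of the largest stage differences rested on few cells or on other cell types. *Ly6d* and *Prlr*, at 304 and 266 UMIs in the adult, had 303 and 265 of them in a single cell each, and *Ptn* had 421 of 547. *Lcn2*, at 1.72 and 116 CPM, had 0 UMIs in either library after cleaning, and *Ptn* then had a ratio of 2.03 (1.03 to 4.03). *Krt14*, a basal keratin, was at 7.73 and 76.8 CPM and also at 0 UMIs after cleaning. *Col1a1*, with a ratio of 0.186 (0.158 to 0.217), stood at 0.702 (0.580 to 0.846) with cleaned members, and *Gfpt2* and *Ugdh*, enzymes of hexosamine and hyaluronan precursor synthesis, went from 0.211 and 0.289 to 0.678 and 0.421. *Krt14* and *Col1a1* were themselves markers used in the cleaning, so their shifts with it were built in.

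**Figure D5:**
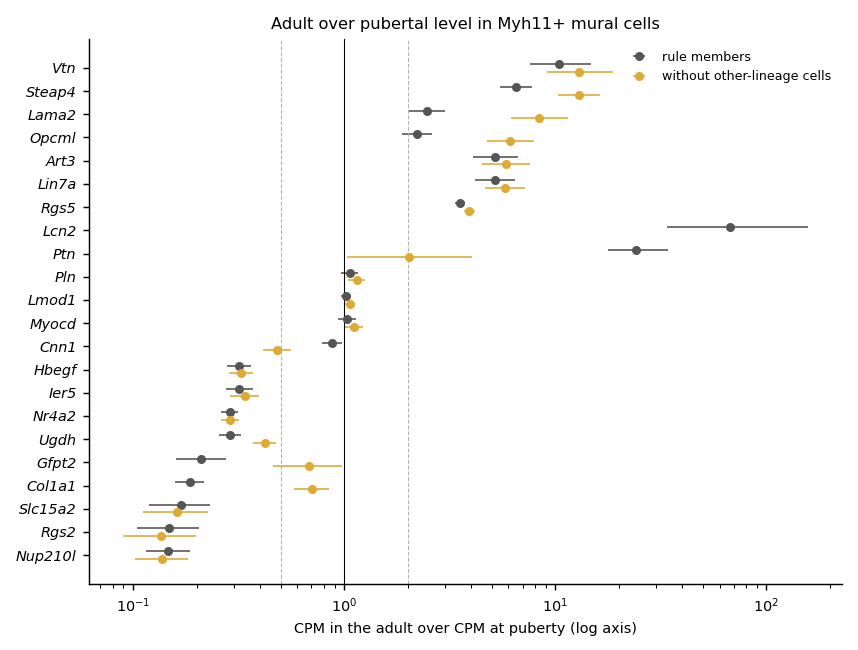
Adult over pubertal CPM (log axis) of named genes in Myh11+ cells, for all members and for cleaned members, with 95% intervals for counting error; dashed lines mark 2-fold. *Vtn* and *Steap4* lie at 12.9 with cleaned members, *Rgs2* and *Nup210l* below 0.2, and *Gfpt2* and *Col1a1*, itself a cleaning marker, move towards 1 after cleaning. *Lcn2* has no cleaned value because it had 0 UMIs.

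In Kcnj8/Abcc9+ Myh11- cells the stages could be compared only roughly, since 197873 pubertal UMIs came from 28 cells and 38749 from the 14 cleaned ones. With all members 797 of 4962 genes were higher (16.1%) and 607 lower (12.2%), a balance that TMM scaling, with a shift of -0.22 in the log2 ratios, turned to 566 higher and 789 lower of 4737. The highest ratios were those of *Gm30835*, *Trabd2b*, *Csrp1*, *Ccdc85a*, *Cpm* and *Dgkb*, each with 1 to 5 pubertal UMIs, and *Trabd2b* stood at 17.3 (7.13 to 54.6), or 10.1 (2.72 to 84.9) with cleaned members. The leading lower genes were complement *C3*, at 1496 and 5.02 CPM, and *Fgl2*, at 1284 and 10.0 CPM, followed by *Ifi205*, *Nav3*, *Cdkn1c* and *Ptx3*, and 139 of the 146 pubertal *Cdkn1c* UMIs came from a single cell. With cleaned members 100 of 5438 were higher (1.84%) and 224 lower (4.12%), and *C3* and *Fgl2* were left with 1 pubertal UMI each. *Rgs5* was then at 4336 and 4300 CPM, *Steap4* at 1084 and 901 CPM, a ratio of 0.831 (0.587 to 1.20), *Vtn* at 258 and 438 CPM, a ratio of 1.70 (0.873 to 3.69), and *Pdgfrb* at 697 and 883 CPM, a ratio of 1.27 (0.836 to 1.99). The intervals of *Steap4*, *Vtn* and *Pdgfrb* include 1, and differences of up to the bounds given were not detectable at this depth. *Agtr1a*, also on the pericyte list, was at 284 and 552 CPM, a ratio of 1.95 (1.04 to 4.04). The rule gene *Abcc9*, given as a description, had a ratio of 1.73 (1.28 to 2.37). Of 20 pericyte genes measured in the cleaned class, 1 was called higher and 0 lower. *Lama2* was higher, at 284 and 841 CPM, a ratio of 2.96 (1.61 to 6.07), while *Irf1*, an interferon-induced factor, was lower, at 981 and 282 CPM, a ratio of 0.288 (0.184 to 0.454).

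Against the 39096 *Pdgfra*+ fibroblasts, the main cell type of the sort, mural cells differed widely. Myh11+ cells held 4655385 of 4880336 pubertal and 2501520 of 2808277 adult mural UMIs, so these sums describe mainly that class. Of 18670 genes tested by edgeR 2274 were higher in mural cells (12.2%) and 3105 lower (16.6%), and with cleaned members 2746 of 18387 were higher (14.9%) and 3873 lower (21.1%). All 25 contractile genes were higher, with a median log2 fold change of 6.63 against -0.14 over all genes tested, and so were 26 of 28 ion channel and calcium handling genes. The largest differences were those of *Rergl*, *Or51e1*, *Slc38a11*, *Xirp1*, *Or51e2*, *Pln*, *P2rx1*, *Pcp4l1*, *Asb2* and *Hrc*. *Or51e1*, an olfactory receptor gene, stood at 366 and 357 CPM in mural cells and at 0.0393 and 0.0452 CPM in fibroblasts, a log2 fold change of 12.80 ± 0.28 (edgeR adjusted p = 0.000153). *Or51e2*, another olfactory receptor gene, was at 111 and 88.7 CPM against 0.0306 and 0.00411 CPM, with 12.24 ± 0.44 (edgeR adjusted p = 0.000248). *Hrc*, a calcium-binding protein of the sarcoplasmic reticulum, was at 87.5 and 62.0 CPM against 0.0262 and 0.0164 CPM. *Steap4*, by contrast, did not set the mural sums apart, at 52.3 and 265 CPM against 118 and 145 CPM in fibroblasts (edgeR adjusted p = 0.621). Its levels in the Kcnj8/Abcc9+ Myh11- class, given above, lay higher than those of fibroblasts in both libraries.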

How the data were processed

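Single cells were profiled with the 10x GEM-X 3' kit, version 4 per the labels, in 1 library each of the pubertal and the adult gland. The authors deposited raw UMI counts per gene and barcode, and the submitters' processing notes name Cell Ranger 8.0.1 and mm10; the annotation release is not given in the sources used here. The libraries held 255274670 and 259549498 UMIs in 21688 and 23183 barcodes.

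Cells with at least 500 genes and at most 10% mitochondrial UMIs were kept. The members and gene lists were chosen with earlier results of these data known. Fibroblasts were cells with *Pdgfra* and *Dcn* UMIs and under 3 rule genes. Doublets were not removed from the main sets: Scrublet's own threshold marked 0 and 697 barcodes, and removal at 0.4% per 1000 barcodes, an alternative, took 39 and 19 mural cells. Counts were summed per class and library, filtered with filterByExpr, scaled by TMM and tested with edgeR 4.0.16 (quasi-likelihood, Benjamini-Hochberg adjusted p under 0.05) in R 4.3.3, with DESeq2 1.42.0 as an alternative. These p-values start from the class-by-library spread of 2 libraries, which edgeR moderates across genes. Values as small as 1.21e-52, that of *Kcnab1* with cleaned members by edgeR, cannot come from 1 residual degree of freedom alone. They are not a measure of spread between animals. Stages were compared as CPM with exact Poisson intervals and binomial intervals of the ratio (Clopper-Pearson), at 95%, in Python 3.11.15 with SciPy 1.17.1. All intervals cover counting error only. Scripts were tested on simulated data.

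The text draws its named genes from the 10 highest and 10 lowest called genes of the class contrast with at least 50 CPM in 1 class and 1 direction in both libraries, the 10 highest against fibroblasts, the 6 highest and 6 lowest stage ratios per class with at least 100 CPM in 1 library, and up to 4 called members a list beside members that were not called. *Foxs1*, *Itpr2*, *Tnc*, *Thbs1*, *Myl6*, *Myl9*, *Il6*, *Irf1* and the levels in co-detecting cells were chosen after their values were seen. Alternatives changed the gene, mitochondrial, marker and *Pdgfra* limits, thinning, doublets, the expression filter, normalization and the library block. Cleaned members, removal of cells with at least 3 fibroblast markers, and requiring *Rgs5* in the Kcnj8/Abcc9+ Myh11- class were added after the data were seen. Some genes that the rule names are not reported here.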

Additional observations from a re-analysis of the deposited data

Results flagged for a closer look

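In several genes the adult over puberty ratio lay above 1 in one mural class and below 1 in the other, and no test of that difference was run. *Fst* had a ratio of 2.65 in Myh11+ cells and 0.524 in Kcnj8/Abcc9+ Myh11- cells, and *Opcml* 2.22 and 0.567. *Myl9* went the other way, with 0.815 and 2.38, as did *S1pr3*, with 0.767 and 2.80. With cleaned members *Hspb1* had 1.11 and 0.520. Beside these values stand the fibroblast markers of the Kcnj8/Abcc9+ Myh11- class, at 30181 CPM at puberty and 4729 CPM in the adult, whose part was not tested.

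The thinned share of cells with *Kcnj8* or *Abcc9* had a ratio of 8.78 in Myh11+ cells and 0.676 in fibroblasts, opposite in direction, and that difference was not tested either. The cells in neither class, which entered the mural shares and the sums set against fibroblasts but no class comparison, carried *Pax7* in 75% at puberty and 92.9% in the adult.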

How the results depend on the processing

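No paired analysis was possible because both groups hold 1 library and share only replicate number 2. The adult over puberty ratio of the mural share was 0.650 without cells with at least 3 fibroblast markers. The Myh11+ share differed by -7.381 points with 4 rule genes, -2.09 (-6.25 to 1.94) without the *Pdgfra* limit and -16.0 with 2 *Myh11* UMIs. The ratio of *Kcnj8* or *Abcc9* in Myh11+ cells was 1.65 without the *Pdgfra* limit and 6.23 with cleaned members. It was 2.18 with members chosen on thinned cells but *Kcnj8* and *Abcc9* counted at full depth. That differs in kind from the ratio of 8.78, where full-depth members were used and these 2 genes were thinned.

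Class contrast calls were 0 higher and 0 lower without the library block. Higher calls were 321 with 1000 genes, 383 with 5% mitochondrial UMIs, 725 with 4 rule genes, 1879 without the *Pdgfra* limit, 602 thinned, 431 without other lineages, 556 without fibroblast marker cells, 625 with *Rgs5* required, 751 cleaned and 723 unfiltered. Lower calls were 485 (5% mitochondrial), 445 (4 rule genes), 1726 (no *Pdgfra* limit), 554 (other lineages), 401 (*Rgs5*), 451 (cleaned) and 561 (unfiltered). Stage calls in Myh11+ cells were 65 higher without other lineages, 259 higher and 145 lower at 20 CPM, and 166 higher with the mean of each cell. In the Kcnj8/Abcc9+ Myh11- class higher calls were 244 (4 rule genes), 221 (no *Pdgfra* limit), 176 (thinned), 169 (no fibroblast marker cells), 213 (*Rgs5*), 100 (cleaned) and 525 (mean of each cell), and lower calls 137 (no *Pdgfra* limit), 347 (thinned), 302 (no fibroblast marker cells), 399 (*Rgs5*) and 224 (cleaned). The cause was not tested.

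Directions turned for *Gfpt2* (stage ratio 1.36 without fibroblast marker cells), *Opcml* (0.940 without the *Pdgfra* limit, 0.966 thinned), *C3* (1.15, no *Pdgfra* limit) and *Fgl2* (1.47, thinned). With the rule on thinned cells log2 fold changes turned to 1.03 for *Itgbl1*, 4.198 for *Mmp3*, 2.73 for *Sfrp4*, 0.37 for *Gpnmb*, 0.81 for *Cpz*, 0.077 for *Col1a2* and 0.024 for *Ccl7*. Without the *Pdgfra* limit *Vtn* was at 0.28 and the pericyte list's median at 1.58. Leaving out 1 library, which allows no test, put that median between -0.95 and 0.23. Call counts of the fibroblast contrast stayed within 1.5 times under the alternatives run, while leaving out the pubertal library, with no test, put the median log2 fold change of its ion channel list at 5.11 against 6.14.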
